A study of Mus musculus with 22 samples.

Results

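The comparison set the H3K4me3 peaks of neuroepithelial cells (NEC) against those of proliferative apical radial glia (aRG-P) of the mouse neocortex, on the 19 autosomes. Every autosomal peak of the 2 lists was a member, 17196 in NEC and 15475 in aRG-P, which makes 32671 of the 110069 peaks in the 10 lists of the series. A peak was shared when it overlapped a peak of the other list by at least 1 bp and unshared otherwise. The series mapped H3K4me3 and H3K27me3 by chromatin immunoprecipitation and sequencing in 5 purified cell types, with 2 samples and 1 deposited peak list for each cell type and mark. The titles of both aRG-N H3K27me3 samples say technical replicate. NEC came from C57BL/6JOlaHsd embryos at embryonic day 9.5 (E9.5) and aRG-P from embryos of the same strain at E14.5. The other E14.5 cell types, used here to follow the unshared peaks, were aRG-N (neurogenic apical radial glia), bRG (basal radial glia) and N (neurons). The same Cell Signaling antibody against H3K4me3 was used for both. No transgene, deletion or treatment is named in the labels of these groups, and how the cells were purified is not given in the sources used here. Because the authors called each list on combined samples, replicate spread could not be measured and NEC and aRG-P were compared without a test. Cell type and age changed together, and their parts in a difference cannot be told apart.

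Neuroepithelial cells are the founder progenitors of the cortex. They line the early neural tube, divide to enlarge their own pool and turn into radial glia when neurogenesis begins, and proliferative apical radial glia still divide at the ventricle to give more progenitors. H3K4me3 is placed on nucleosomes at the start sites of active and poised genes, and a broad stretch of it is often seen at genes of cell identity. H3K27me3 is the mark of Polycomb repressive complex 2, which keeps developmental genes silent. Many such genes carry both marks in progenitors, the state called bivalent.

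Nearly all aRG-P peaks were already listed in NEC, and a larger part of the NEC peaks was not listed in aRG-P. Of the NEC peaks, 4241 had no overlapping aRG-P peak, a percentage of 24.7 with an exact Clopper-Pearson 95% interval of 24.0 to 25.3%. In the other direction 402 aRG-P peaks had no NEC peak, 2.60 percent (2.35 to 2.86%). These intervals cover counting error only, and the read depth behind the lists is unknown. The lists also differed in extent, with 19708 kb covered by autosomal H3K4me3 peaks in NEC and 11572 kb in aRG-P. Set against the other E14.5 lists, NEC had 18.3% unshared peaks with aRG-N, 22.8% with N and 23.8% with bRG, while 2.42 to 3.54% of the peaks of those lists were missing in NEC. These comparisons share the NEC list, and each gave more unshared peaks in NEC.

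Unshared peaks were weak and narrow within each list. The strength used here is the fold enrichment over background that the authors' peak caller gave each peak, and it ranks peaks within a list only. In NEC its median was 6.90 for unshared peaks, with quartiles of 5.12 and 9.36, and 24.1 for shared peaks, with quartiles of 16.3 and 32.0. The median width was 374 bp for unshared and 1211 bp for shared NEC peaks. In aRG-P the median fold enrichment was 5.14 for unshared and 9.43 for shared peaks, and the median widths were 258 bp and 651 bp. When the NEC list was divided into 10 equal bins by fold enrichment, the percentage unshared was 86.3 in the weakest bin, 49.4 in bin 3, 8.03 in bin 5 and 0.291 in the strongest. Bins of width went the same way, from 86.2% in the narrowest to 1.75% in bin 9, with 2.44% in the widest. Few strong NEC peaks were thus unshared. Of the stronger 50% of the NEC list, 61 peaks were unshared and 8537 shared, and of the weaker 50%, 4180 were unshared and 4418 shared. In aRG-P the percentage unshared fell from 12.1 in the weakest bin to 0.517 in bin 5 and 0 in the strongest.

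**Figure D1:**
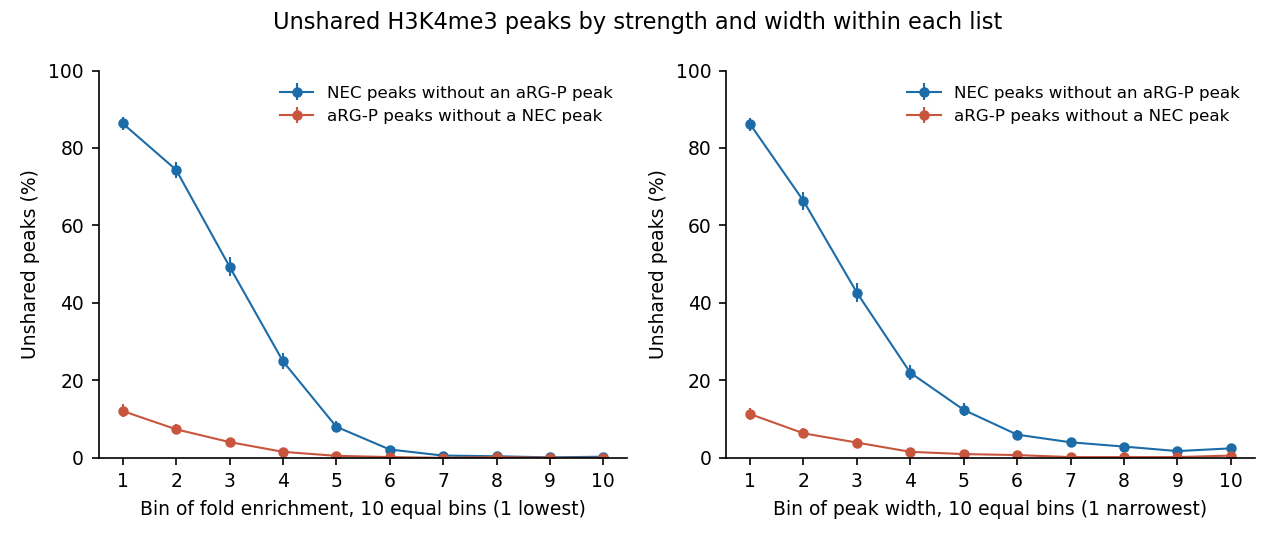
Share of H3K4me3 peaks without a peak in the other list (%), by bin of fold enrichment (left) and of width (right), each with 10 equal bins, within the NEC list (blue) and the aRG-P list (red), with exact 95% binomial intervals as bars. The NEC share drops from 86.3% to 0.291% from the weakest to the strongest bin, and the aRG-P share from 12.1% to 0%.

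Peaks at the edge of the definition were few. In NEC, 49 peaks were shared through an overlap of 50 bp or less (median fold enrichment 6.89), and 57 unshared peaks lay within 50 bp of an aRG-P peak (5.91). In aRG-P there were 24 of the former (4.69) and 23 of the latter (5.14).

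Unshared NEC peaks were divided by distance, at limits of 2000 bp and 5000 bp. Within 2000 bp of an aRG-P peak lay 1886 of the 4241 (44.5%), called near below. Of these, 1866 also had a shared NEC peak within 2000 bp, so that they flanked a site marked in both cell types. With 97.4% of all aRG-P peaks shared, this largely follows from the definition of near. Over 5000 bp away lay 2184 (51.5%), called distant below, which is 12.7 percent of the NEC list. The 171 others lay in between. Distant peaks were somewhat stronger and wider than near ones, with median fold enrichments of 7.39 and 5.91 and median widths of 474 bp and 296.5 bp. Of all unshared NEC peaks, 549 were over 100 kb from any aRG-P peak. The unshared aRG-P peaks were mostly flanking, 299 of 402 (74.4%) being near and 87 (21.6%) distant. These 87 make 0.562 percent of the aRG-P list.

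**Figure D2:**
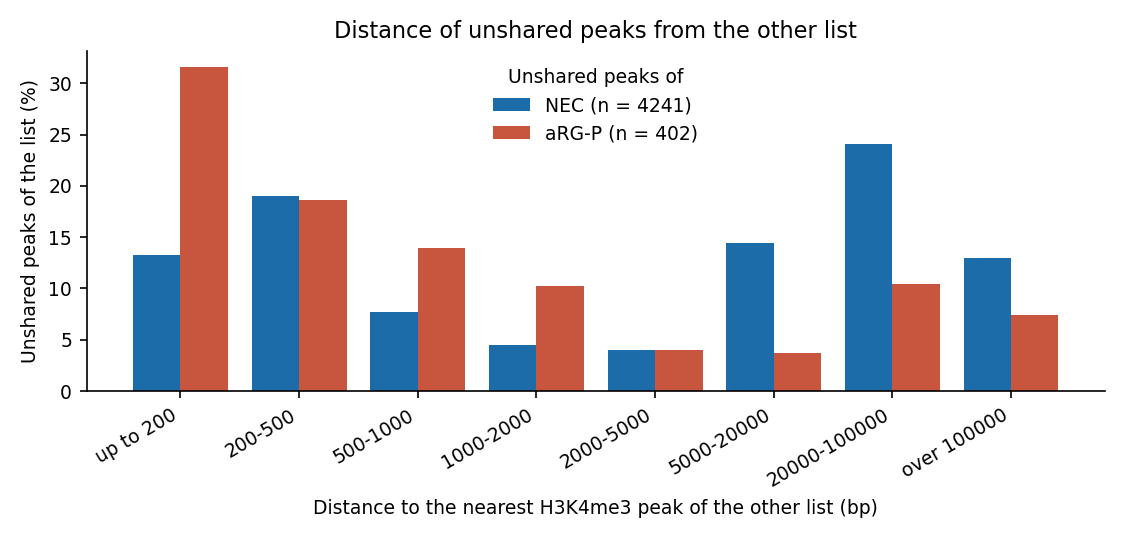
Unshared H3K4me3 peaks of NEC (blue, n = 4241) and aRG-P (red, n = 402), as a percentage of the unshared peaks of each list, by distance in bp to the nearest peak of the other list. The bins are of unequal width, and the shape of the bars depends on them. The NEC bars are high at 200-500 bp (19.1%) and at 20000-100000 bp (24.1%), and the aRG-P bars are highest at up to 200 bp (31.6%).

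Where both lists had a peak, the aRG-P peak usually lay within the reach of the NEC peak. These counts describe how far the calls of each list extend, and with unknown read depths they do not measure the breadth of the mark in the cells. Of the shared aRG-P peaks, 79.5% lay wholly inside a NEC peak, and 1.83% of the shared NEC peaks lay wholly inside aRG-P peaks. The summit, the highest point of the peak, lay inside an aRG-P peak for 94.5% of shared NEC peaks and inside a NEC peak for 98.8% of shared aRG-P peaks. One NEC peak often met several aRG-P peaks. This held for 2174 shared NEC peaks (16.8%), while 355 shared aRG-P peaks (2.36%) met more than one NEC peak. Within the NEC list, the median width was 1107 bp for peaks meeting 1 aRG-P peak, 1815 bp for 2 and 2650 bp for 3.

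The most divided NEC peak lay on chromosome 2 from 105515659 to 105522898 in build mm9. It was 7240 bp wide with a fold enrichment of 34.3, and 7 aRG-P peaks together covered 60.4% of it. The H3K4me3 cover was 7.61% in N, 47.8% in bRG and complete in aRG-N. H3K27me3 covered 27.3% of it in NEC, none in aRG-P or aRG-N, 15.5% in bRG and all of it in N. The N list thus combined the least H3K4me3 with full H3K27me3 cover at this site. Another broad NEC peak, on chromosome 5 from 123586869 to 123595025 (8157 bp, fold enrichment 37.4), met 6 aRG-P peaks that covered 56.1% of it. Its H3K4me3 cover was 88.0% in N, 89.7% in bRG and 91.1% in aRG-N, and no list had H3K27me3 there. At this site aRG-P had the lowest cover of the 5 lists, but 2 aRG-P numbers were missing there. A site on chromosome 18 from 83078642 to 83086759 (8118 bp, fold enrichment 37.9) also met 6 aRG-P peaks and had no H3K27me3 in any list. There too, 2 aRG-P numbers were missing.

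The 10 distant unshared NEC peaks with the highest fold enrichment had values from 28.1 to 51.7, above the NEC median of shared peaks. A peak on chromosome 15 tied with the last of them and is not described. At 6 of the 10, H3K4me3 was absent from aRG-N, bRG and N as well, beside 15.5% of all NEC peaks and 65.9% of distant ones. At 8 of the 10, all 4 E14.5 lists had an H3K27me3 peak, and 5 of these 8 had none in NEC. H3K27me3 in all 4 was found at 12.7% of all NEC peaks and 40.6% of distant ones. In all 4 and not in NEC, it was found at 0.913% and 2.29%. The remaining 2 of the 10 sites had no H3K27me3 in any list, beside 70.2% of all NEC peaks. Peak numbers in the lists follow position, so a gap in them shows a call that is not in the list used here. For 8 of the 10 sites no aRG-P number was missing between the neighbouring aRG-P peaks, near the 84.8% of all NEC peaks.

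Of the 5 sites with an exchange of marks, the strongest lay on chromosome 4 from 133571168 to 133575153, ranked 32 among all autosomal NEC peaks, with the nearest aRG-P peak 13999 bp away. H3K27me3 covered none of it in NEC, 66.0% in aRG-P, and 84.7% in N, 80.2% in bRG and 79.5% in aRG-N. On chromosome 14 from 49281168 to 49287289 (6122 bp, fold enrichment 43.8) the nearest aRG-P peak was 214548 bp away, and E14.5 H3K27me3 covered the whole NEC peak in every E14.5 list. The whole stretch under H3K4me3 in NEC was thus under H3K27me3 at E14.5. On chromosome 9 from 106050433 to 106052396 (fold enrichment 38.4) the E14.5 cover by H3K27me3 was also complete, and a piece of H3K4me3 remained in aRG-N, covering 31.5% of the site. A further site on that chromosome, from 114468569 to 114474086 (5518 bp, fold enrichment 36.9), had complete H3K27me3 cover in the 4 E14.5 lists. Short H3K4me3 peaks persisted there in aRG-N (4.51% of the site), bRG (6.98%) and N (12.6%), and not in aRG-P. On chromosome 10 from 93296222 to 93297749 (1528 bp, fold enrichment 28.1), H3K27me3 covered 96.0% in aRG-P, 74.0% in bRG and all of the site in aRG-N and N. It is 1 of the 2 sites with a missing aRG-P number.

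The 3 sites with H3K27me3 in all 5 lists were wide, and the Polycomb mark covered less of them in NEC than at E14.5. The widest unshared NEC peak lay on chromosome 6 from 23194233 to 23204290, with a width of 10058 bp, a fold enrichment of 31.5 and the nearest aRG-P peak 367601 bp away. H3K27me3 covered 48.3% of it in NEC, 88.4% in bRG and all of it in aRG-P, aRG-N and N. Next to each other on chromosome 17 lay peaks from 86011676 to 86019048 (7373 bp, fold enrichment 30.05) and from 86020069 to 86026069 (6001 bp, 43.3), both over 500 kb from any aRG-P peak. H3K27me3 covered 65.6% of the first and 12.6% of the second in NEC, and all of both in each E14.5 list. No E14.5 list had H3K4me3 at any of these 3 peaks. The fourth widest distant NEC peak lay on chromosome 13 from 40823093 to 40829211 (6119 bp, fold enrichment 13.8). H3K27me3 covered 78.6% of it in NEC and all of it in each E14.5 list, with H3K4me3 left over 7.17% in aRG-N. Around this peak, 2 aRG-P numbers were missing.

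At 2 sites neither mark was listed in aRG-P. On chromosome 16 from 17123683 to 17125705 (2023 bp, fold enrichment 28.6), H3K4me3 covered 60.6% in aRG-N and 26.1% in bRG and none in N. On chromosome 19 from 45089641 to 45093753 (4113 bp, fold enrichment 30.5) it covered 28.0% in aRG-N and 13.03% in bRG and none in N. Both had an aRG-P peak within 10 kb, at 5979 bp and 8245 bp, and at the second 2 aRG-P numbers were missing.

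**Figure D3:**
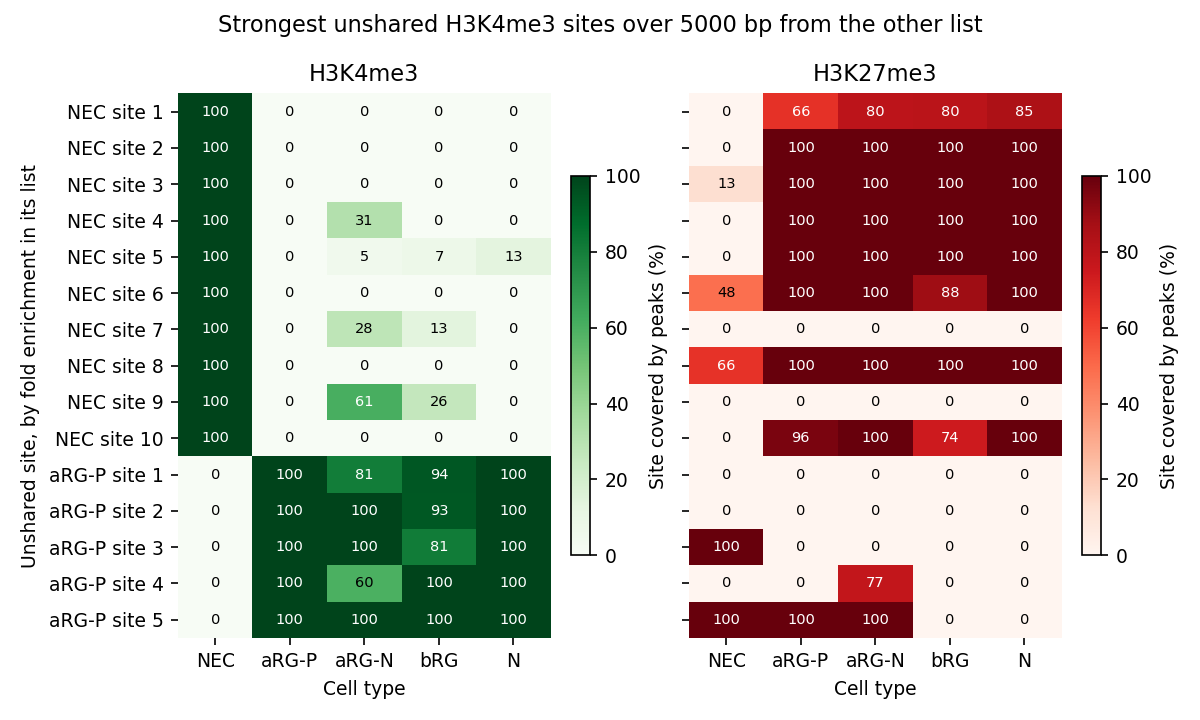
Cover of the 10 strongest distant unshared NEC peaks and the 5 strongest distant unshared aRG-P peaks by H3K4me3 (left, green) and H3K27me3 (right, red) peaks of the 5 cell types, as a percentage of each site's length, in order of fold enrichment within a list. H3K27me3 covers 66.0 to 100% of 8 of the 10 NEC sites in aRG-P, and the 5 aRG-P sites have H3K4me3 in every E14.5 list.

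Runs of neighbouring unshared NEC peaks were also listed. Of the 4241, 1971 stood in 782 runs of 2 or more unshared peaks with no shared NEC peak between them, and 2270 stood singly. With 24.7% of the NEC list unshared, many unshared peaks would be neighbours without any clustering, and clustering was not tested. The run with the strongest site, on chromosome 4 from 133565760 to 133576369, held 9 peaks with fold enrichments of 4.43 to 51.7 within 10.6 kb. None of the 9 met H3K4me3 in any E14.5 list and no aRG-P number was missing. H3K27me3 covered 36.3% of the span in aRG-P, 41.3 to 43.3% in the other E14.5 lists and none in NEC, and it met the same 3 peaks in each E14.5 list. A longer run, on chromosome 12 from 74018702 to 74155545, held 10 peaks in 137 kb with fold enrichments up to 15.8, and 9 of them met no H3K4me3 at E14.5. H3K27me3 met 9 of them in NEC and 10 in aRG-P, so peaks of both marks were listed along this run in NEC. Between the aRG-P peaks next to the run, 1 number was missing. The run on chromosome 5 from 115884105 to 115939275, with 9 peaks in 55.2 kb and fold enrichments up to 11.3, had no H3K27me3 at its peaks in any list, although that mark covered 7.38% of the span in NEC and 0.845% in N. Of its peaks, 3 were listed in aRG-N.

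Many unshared NEC peaks, the weak ones above all, were absent from the other E14.5 lists too. No peak of aRG-N, bRG or N overlapped 2574 of the 4241 (60.7%), where this share was 15.5 percent over all NEC peaks. It was 65.9% for distant and 54.3% for near peaks, and 0.641% for shared ones. With the NEC list in 4 equal bins of fold enrichment, the share of unshared peaks without a partner was 68.3% in the weakest and 36.6% in bin 2, beside 5.43% and 0.742% of the shared peaks there. In lists cut to equal length it was 37.4% of 2238 unshared peaks. All 3 lists had a peak at 396 of the 4241 (9.34%), beside 72.3% of all NEC peaks. Of these 396, 240 were near an aRG-P peak, where aRG-P lacked only an overlapping call. The 144 distant ones are those where aRG-P alone lacked the site at E14.5. By list, aRG-N held 31.7%, N 20.1% and bRG 17.2% of the unshared NEC peaks. Over all NEC peaks the shares were 81.7%, 77.2% and 76.2%, in the same order. Among the 61 unshared peaks in the stronger 50% of the NEC list, 21 were found in N, 30 in bRG and 44 (72.1%) in aRG-N, and 14 in none of them. Of the shared peaks in that 50%, 99.0% were found in all 3.

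Unshared aRG-P peaks had a partner in the other E14.5 lists less often than the whole aRG-P list did. Another E14.5 list held 355 of the 402 (88.3%, interval 84.8 to 91.3%) and 78 of the 87 distant ones (89.7%), where 98.8 percent of all aRG-P peaks had such a partner. All 3 lists held 153 of the 402 (38.1%), beside 88.8% of all aRG-P peaks. N held 71.6%, bRG 61.4% and aRG-N 57.5% of the unshared aRG-P peaks. Over all aRG-P peaks these shares were 93.2% for N, 93.2% for bRG and 96.5% for aRG-N. No peak in any of the other 4 H3K4me3 lists overlapped 47 aRG-P peaks, which had a median fold enrichment of 4.71 and a median width of 188 bp.

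**Figure D4:**
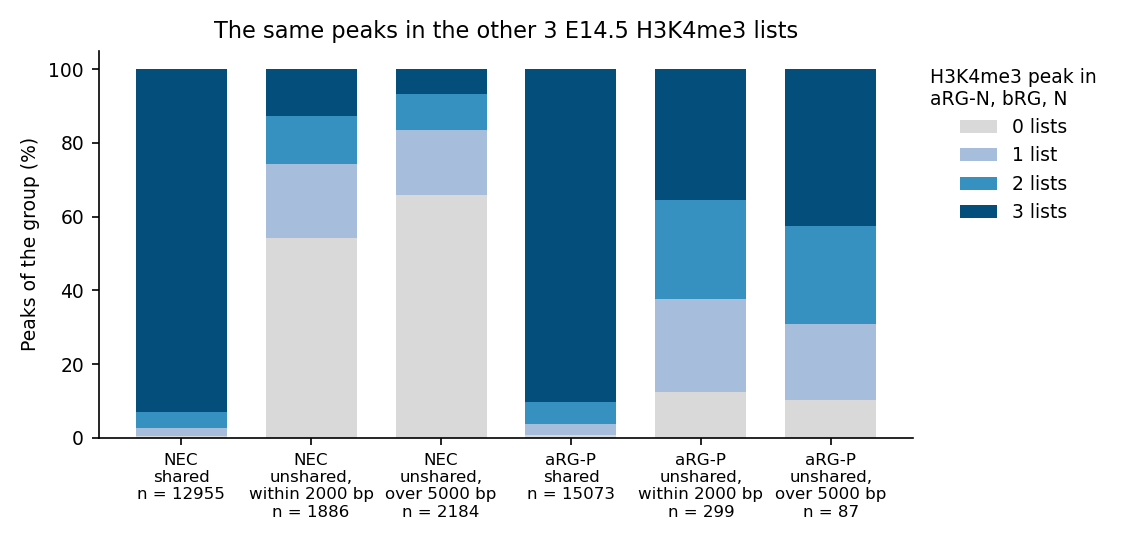
H3K4me3 in aRG-N, bRG and N at shared and unshared peaks of NEC and aRG-P, as the percentage of peaks found in 0, 1, 2 or 3 of these lists (light to dark). Distant unshared NEC peaks were in none of them in 65.9% of cases, and shared NEC peaks in all 3 in 92.9%.

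H3K27me3 was listed at many distant unshared NEC peaks at both ages. In aRG-P it overlapped 1345 of the 4241 unshared NEC peaks (31.7%, interval 30.3 to 33.1%), where the share over all NEC peaks was 15.8 percent. Distant peaks made up most of this, with 47.2% against 13.5% of the near ones and 10.6% of the shared ones. H3K27me3 of NEC itself overlapped 37.2% of unshared NEC peaks (35.7 to 38.6%), 53.5% of the distant and 17.8% of the near ones, beside 25.3 percent of all NEC peaks. The Polycomb mark was listed in both cell types at 933 distant peaks (42.7%), beside 14.3% of all NEC peaks, and in neither at 919 (42.1%), beside 73.1%. It was in NEC only at 235 (10.8%), near the 11.1% of all NEC peaks, and in aRG-P only at 97 (4.44%). H3K27me3 in aRG-P with none in NEC was found at 134 of the 4241 (3.16%), beside 1.55 percent of all NEC peaks. For 50 of the distant peaks H3K27me3 was in all 4 E14.5 lists and not in NEC, which is 2.29% beside 0.913% of all NEC peaks.

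Among shared NEC peaks, weak ones met H3K27me3 more often than strong ones, so the shares were also taken within 4 equal bins of fold enrichment. In the weakest bin H3K27me3 of aRG-P overlapped 46.2% of distant unshared and 17.9% of shared NEC peaks, and in bin 2 49.0% and 22.6%. Near unshared peaks lay below the shared ones there, with 13.7% in the weakest bin and 12.1% in bin 2, the reverse of their order over the whole list. In bin 3 the shares were 48.6% of 37 distant peaks and 8.24% of shared ones, and in the strongest bin 7 of 8 distant peaks and 1.75% of shared ones. These 8 are the strongest sites described above, 2 of them neighbours on chromosome 17, so the strongest bin adds no further sites. An excess at distant peaks was present in each bin. For H3K27me3 of NEC the distant and shared shares were 53.2% and 35.4% in the weakest bin and 55.6% and 41.7% in bin 2. Over all unshared peaks of a bin, H3K27me3 of NEC was no more frequent than at shared ones in the weakest bin, with 35.4% of each, and in bin 2 it met 44.1% of unshared and 41.7% of shared peaks. The whole-list difference of 37.2% against 21.5% was thus nearly absent at like fold enrichment in these 2 bins. The unshared share of the weakest bin joins 18.0% of near with 53.2% of distant peaks. In the stronger 50% of the NEC list, H3K27me3 of NEC met 16 of 61 unshared peaks (26.2%) and 1007 of 8537 shared ones (11.8%). There, 14 of the 61 unshared peaks (23.0%) had H3K27me3 in aRG-P and none in NEC, against 85 of the shared ones (1.00%). Overlap of lists made from many cells cannot place both marks in one cell or on one allele. For aRG-P, the name of the combined H3K27me3 file mentions an excluded set.

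**Figure D5:**
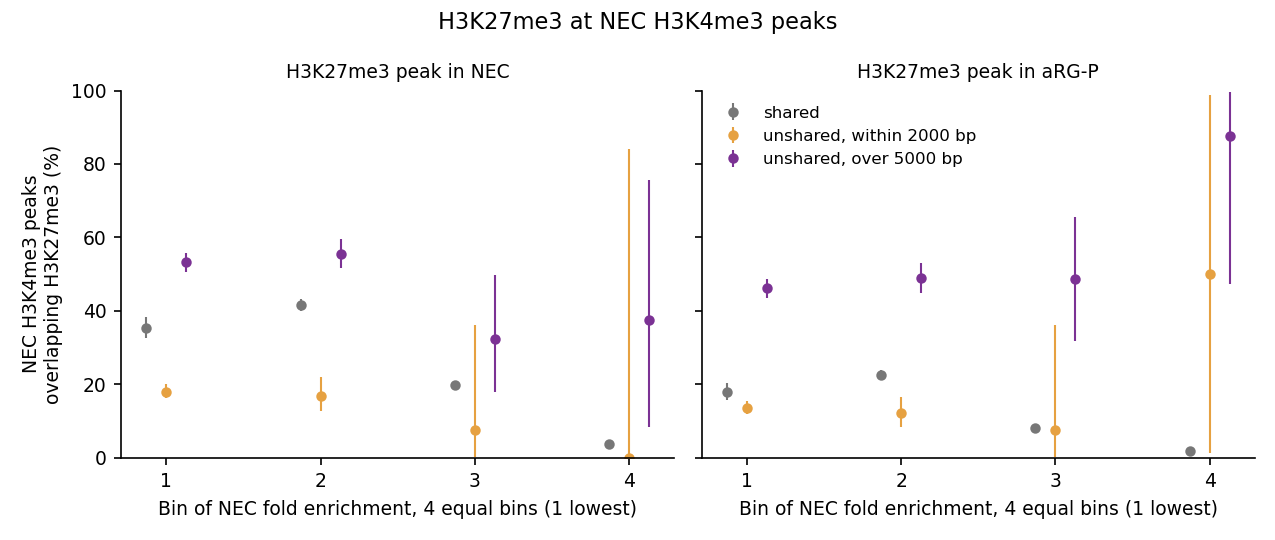
Share of NEC H3K4me3 peaks overlapping an H3K27me3 peak of NEC (left) or aRG-P (right), in %, by bin of fold enrichment within the NEC list (4 equal bins), for shared (grey), near unshared (orange) and distant unshared (purple) peaks, with exact 95% binomial intervals. In aRG-P the purple points lie between 46.2% and 87.5%, and the grey points fall to 1.75% in the strongest bin.

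The strongest distant aRG-P peaks without a NEC peak were modest in their list, with fold enrichments from 8.66 to 10.3, close to the aRG-P median of shared peaks. All 5 met an H3K4me3 peak of each other E14.5 cell type, beside 42.5% of the distant and 90.1% of the shared aRG-P peaks, so this does not set them apart from the list. Of the 5, 2 had no H3K27me3 in any list, and 2 others met H3K27me3 of NEC, beside 18.8% of all aRG-P peaks. The strongest lay on chromosome 5 from 136282711 to 136283100 (390 bp, fold enrichment 10.3) and the next on chromosome 3 from 84756100 to 84756728 (629 bp, 9.85), and these are the 2 without H3K27me3. The chromosome 3 peak, 135908 bp from the nearest NEC peak, was the one of the 5 with no NEC number missing around it. On chromosome 8 from 87293814 to 87296330 (2517 bp, fold enrichment 9.42) H3K27me3 covered the whole site in NEC and none of it in the E14.5 lists. On chromosome 11 from 98187479 to 98190372 (2894 bp, 8.66) it covered the whole site in NEC and both apical E14.5 types and none in bRG or N, and 3 NEC numbers were missing there. The fifth, on chromosome 5 from 137994567 to 137995220 (654 bp, 8.997), had H3K27me3 in aRG-N alone.

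H3K27me3 of NEC was listed at a larger share of the unshared aRG-P peaks than of the whole aRG-P list. It overlapped 132 of the 402 (32.8%) in NEC, beside 18.8 percent of all aRG-P peaks, and 52 (12.9%) in aRG-P, beside 8.96 percent. The Polycomb mark in NEC and not in aRG-P was found at 83 of the 402 (20.6%, interval 16.8 to 24.9%), beside 11.1 percent of all aRG-P peaks, and the reverse at 3. In the weakest of 4 equal bins of aRG-P fold enrichment this was 20.2% of unshared and 11.3% of shared peaks, and in bin 2 20.4% of 54 unshared and 14.2% of shared ones. H3K27me3 of NEC as such overlapped 31.9% of unshared and 27.5% of shared peaks in the weakest bin. Near unshared aRG-P peaks had the mark in NEC in 36.5% of cases and distant ones in 18.4%. Of the 87 distant ones, 71 (81.6%) had H3K27me3 in neither cell type, close to the 79.95% of all aRG-P peaks.

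Missing calls and chromosomes were checked for both directions. Per the file headers, the aRG-P list names a window of 2000 bp around transcripts and the NEC list does not, and the effect of this on the counts was not tested. No aRG-P number was missing between the neighbours of 3568 unshared NEC peaks (84.1%) and of 85.0% of shared ones, and for distant peaks the share was 80.0%. In the other direction no NEC number was missing for 287 of the 402 aRG-P peaks (71.4%) and for 44 of the 87 distant ones. No share over all aRG-P peaks is set beside these counts, so they cannot be called high or low. Of the H3K4me3 calls, 17.8% in NEC and 8.65% in aRG-P are not in the lists used here. The percentage of unshared NEC peaks ranged from 18.8 on chromosome 16 (15.6 to 22.5%) to 28.6 on chromosome 7 (26.2 to 31.1%), and that of aRG-P peaks from 1.02 on chromosome 10 to 4.13 on chromosome 3. No autosome lacked the asymmetry.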

How the data were processed

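H3K4me3 and H3K27me3 were immunoprecipitated from purified neocortical cells with a Diagenode LowCell ChIP kit and made into libraries with the MicroPlex kit of that maker, per the labels' protocols. Build mm9, Bowtie 1.0.0, bedtools and MACS2 are named in the submitters' processing notes. Sample titles gave the groups.

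The authors deposited 1 peak list per group, called on combined samples per the peak names. For H3K4me3 the deposited columns were a fold enrichment (a ratio to background), −log10 p and −log10 q values and the summit's offset. Fold enrichment was used only within a list. For H3K27me3 only positions were used, and the deposited columns, called a score here, were not. The listed peaks lie near transcripts, per the file headers, and the aRG-P H3K4me3 header adds a window of 2000 bp. Numbers missing in the peak names showed that 17.8% of NEC and 8.65% of aRG-P H3K4me3 calls are not in the lists used here. Per the peak names, the N H3K27me3 list came from extended reads and the aRG-P H3K27me3 list from a file with an excluded set, so these lists were made differently.

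Overlaps were computed in Python 3.11.15 with pandas 2.3.3, scipy 1.17.1 and numpy 2.4.6, and figures with matplotlib 3.10.9. The overlap functions were first tested on simulated lists, made from the deposited ones by removing and adding peaks. The authors' peak calling was not tested. Positions are 1-based. Named regions were the 10 NEC and 5 aRG-P unshared peaks of highest fold enrichment with no peak of the other list within 5000 bp, the 5 widest such NEC peaks, the 3 longest NEC runs, the 3 NEC peaks meeting most aRG-P peaks and the 3 strongest NEC peaks with H3K27me3 in aRG-P and none in NEC. The members, the lists and these rules were chosen with earlier results of these data known. The 6 alternatives changed the lowest −log10 q, the overlap, the distance, the list length, the joining of peaks and the missing numbers allowed. Gene lists, cell type markers and sequences, which need an annotation or genome of build mm9, were not analysed here, so regions have no gene names and the cell types were not checked against markers. The Input samples were not used here.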

Additional observations from a re-analysis of the deposited data

How the results depend on the processing

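The 6 main values were recomputed under 6 alternatives, and each share below names the value it replaces. Unshared NEC peaks numbered 4241 and aRG-P peaks 402. A −log10 q of at least 5 gave 266 aRG-P peaks, no E14.5 partner for 53.9% of unshared NEC peaks (60.7% before) and H3K27me3 in NEC at 39.2% (37.2% before). An overlap of at least 50% of the peak gave 7367 unshared NEC peaks, with 49.1% lacking an E14.5 partner and H3K27me3 at 27.6% in aRG-P (31.7% before) and 33.2% in NEC. With no peak allowed within 5000 bp there were 2184 and 87 peaks, and the shares were 65.9%, 47.2% and 53.5%. In lists cut to 14278 peaks there were 2238 unshared NEC peaks and 510 aRG-P peaks, and the shares were 37.4%, 35.3% and 42.5%. There, 92.0% of unshared aRG-P peaks had an E14.5 partner (88.3% before). At equal length, counts in both directions differ only where a peak meets several peaks of the other list. Peaks joined across 1000 bp gave 2038 and 109, with H3K27me3 at 45.4% and 53.2%. With no number missing, 3568 and 287 remained. NEC had more unshared peaks than aRG-P in all 6. The equal-length and 50% overlap settings cannot show whether NEC had more sites of its own. Both depend on how wide and how divided the calls of each list are. The cause of these shifts was not tested. No paired analysis was possible because the lists were called on combined samples, and for the same reason no replicate could be left out. Read depth is unknown, so weak peaks of one list may be below the reach of the other.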

Other observations

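Groups of unshared aRG-P peaks were described after their values were seen. On chromosome 8, 6 consecutive unshared aRG-P peaks lay between 87229396 and 87324747, with fold enrichments of 4.28 to 9.42. All 6 met H3K27me3 in NEC and none did in an E14.5 list, and 4 were found in all of aRG-N, bRG and N. The NEC domain covered 82.0% of the span. On chromosome 3 from 88010571 to 88018055, 3 unshared aRG-P peaks, one of them 5903 bp wide with a fold enrichment of 12.2, lay wholly within H3K27me3 of NEC, and no E14.5 list had that mark there. The nearest NEC H3K4me3 peak was 374 bp from the run, and 2 NEC numbers were missing. On chromosome 1 from 121315751 to 121317687 (1937 bp, fold enrichment 11.996) H3K27me3 covered the whole aRG-P peak in NEC, none in aRG-P, aRG-N or bRG and 15.0% in N. On chromosome 4 from 82143008 to 82149445, 6 unshared aRG-P peaks of 182 to 1585 bp were all found in aRG-N, bRG and N, with no NEC number missing and H3K27me3 of NEC at 1 of the 6. Of the 3 runs with 4 unshared aRG-P peaks, the one on chromosome 11 met no H3K27me3 in any list. Those on chromosomes 2 and 12 met H3K27me3 of NEC at all 4 peaks, and that of aRG-P at 2 and 3 of them.

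Some NEC sites were missing in aRG-P and present in aRG-N, bRG and N, also singled out after their values were seen. Of 144 distant sites of this kind, 74 (51.4%) had H3K27me3 in no list, beside 70.2% of all NEC peaks. The mark was in NEC and not in aRG-P at 13.9%, beside 11.1% of all NEC peaks, and the reverse at 5.56%, beside 1.55%. On chromosome 17 from 43938203 to 43939272 (fold enrichment 26.6) H3K27me3 covered the whole site in aRG-P and N, 64.6% in bRG, 22.5% in aRG-N and none in NEC, while H3K4me3 covered 19.3% in N, 70.2% in bRG and 71.1% in aRG-N. On chromosome 2 from 168415283 to 168416156 (26.1) and on chromosome 13 from 30428222 to 30428920 (21.7) H3K27me3 covered the NEC peak in NEC and was listed in no E14.5 cell type, aRG-P included. A site on chromosome 11 from 89863662 to 89864261 (20.7) had no H3K27me3 in any list. Conversely, 131 shared aRG-P peaks (0.869% of the shared ones) had H3K4me3 in NEC and in none of aRG-N, bRG and N. Of the unshared aRG-P peaks, 47 of 402 (11.7%) were in none of aRG-N, bRG and N. The 131 shared peaks had a median fold enrichment of 4.71 and a median width of 203 bp. The strongest, on chromosome 5 from 5380720 to 5380956 (237 bp, fold enrichment 8.14), had no H3K27me3 in any list.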
